A study of Rattus norvegicus with 6 samples.

Results

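Retinoid handling was examined in the livers of adult offspring of hyperglycaemic male rats through 9 genes: Rdh16, Rdh10, Dhrs3, Rbp4, Aldh1a1, Cyp26a1, Rara, Rarb and Rxra, out of 22093 genes measured. Rdh16 was chosen by its difference between the groups on these same arrays, where it ranked 41st from the lowest by moderated t, and the other 8 were listed for their role in the same pathway. Their differences between the groups are therefore given as a description, and no test is drawn from them. Each gene was read from the probe set that carried its symbol alone and had the highest mean over the 6 arrays.

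The fathers were Sprague Dawley males that had received streptozotocin by intraperitoneal injection, a toxin of the insulin-producing beta cells that left them hyperglycaemic, or the citrate buffer in which it is given, and all were bred with healthy females. The offspring groups were STZ-O (3 livers) and CB-O (3 livers), 1 array per liver. All offspring were adults on a chow diet, killed in the fed state, with 1 animal taken per litter. The sexes are not distinguished, and neither the number of fathers nor the exact age is given, in the sources used here. The streptozotocin was given to the fathers only, so the offspring were untreated, and the control fathers, with normal glucose, were injected too. Since 1 rat was taken per litter, the livers of a group come from separate litters, and whether litters shared a father is not given in the sources used here.

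Vitamin A reaches the liver as retinol and its esters. Hepatocytes load retinol onto the carrier protein RBP4 for the blood, and stellate cells store it as retinyl ester. Inside cells, retinol dehydrogenases such as RDH16 and RDH10 oxidise retinol to retinal, DHRS3 reduces retinal back to retinol, and ALDH1A1 oxidises retinal to retinoic acid. Retinoic acid binds the receptors RARA and RARB, which act on DNA as dimers with RXRA, and CYP26A1 degrades it.

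Cyp26a1 and Rarb are the classical retinoic acid-induced genes among the 9, and their promoters are shown because each carries the receptor's DNA element. The element sought was a DR5, a pair of half-sites in direct repeat with 5 bases between them, on either strand. A half-site was AGGTCA, the common form, or one of its variants, of which AGTTCA was allowed, then GGGTCA was allowed, and lastly GGTTCA was allowed, in any pairing. RefSeq promoters (GRCr8) were at hand for 7 of the 9 genes, all but Rdh16 and Rdh10. A DR5 was found in 2 of the 7, where 128 of all 33469 promoters of the same length (0.382%) held one. Nothing is read from this share, since Cyp26a1 and Rarb are classical targets and the half-sites sought include the variants they carry. Both sequences read 5′ to 3′ on the gene's strand with the DR5 in capitals. The Cyp26a1 promoter lies at chr1:244883572-244883871 on the plus strand, with its element 92 to 76 bases before the start, reading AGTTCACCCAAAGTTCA on the opposite strand. The Rarb promoter lies at chr15:11336142-11336441 on the plus strand, with its element from 25 to 41 bases into the transcript of this start, reading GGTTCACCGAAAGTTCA. A match is a stretch of letters and not a measured binding site.
Cyp26a1: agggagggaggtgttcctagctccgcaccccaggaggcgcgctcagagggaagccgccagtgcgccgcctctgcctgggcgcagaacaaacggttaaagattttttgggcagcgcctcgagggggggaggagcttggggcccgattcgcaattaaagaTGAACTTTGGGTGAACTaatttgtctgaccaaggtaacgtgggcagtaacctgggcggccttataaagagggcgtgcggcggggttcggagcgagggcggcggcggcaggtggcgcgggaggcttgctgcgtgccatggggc
Rarb: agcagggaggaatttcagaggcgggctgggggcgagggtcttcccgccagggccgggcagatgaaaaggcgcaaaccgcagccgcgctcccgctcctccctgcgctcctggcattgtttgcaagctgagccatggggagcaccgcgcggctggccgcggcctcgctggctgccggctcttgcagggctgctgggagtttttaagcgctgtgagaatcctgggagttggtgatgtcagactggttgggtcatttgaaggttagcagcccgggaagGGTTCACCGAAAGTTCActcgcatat

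The RNA was that of liver tissue. Of 11 measured hepatocyte markers 10 averaged above 8.26, the 95th percentile of the negative control probe sets on the log2 scale, and albumin (Alb) lay between 13.09 and 13.21 on the 6 arrays. Of 6 cholangiocyte markers and of 11 markers of fat, pancreas and muscle 0 averaged above it. Over all probe sets tested, Pearson's r between any 2 arrays lay from 0.991 to 0.994. The Y-linked gene Ddx3y lay between 9.22 and 9.67 on all 6 arrays. The male-biased Cyp2c11 lay between 11.83 and 12.14. By Ddx3y and Cyp2c11 all 6 livers read as male. Of the other Y-linked genes Eif2s3y averaged 8.57, Uty 8.22 and Kdm5d 7.65, and Usp9y was dim throughout (mean 3.40). The female-biased Cyp2c12 was also bright, between 9.04 and 10.52. STZ-O replicate 3 stood apart in markers of sinusoidal endothelium and of Kupffer cells, where its mean deviation from the 6-array mean was -0.38 and -0.35.

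Rdh16, which encodes a microsomal short-chain dehydrogenase that oxidises retinol, had the largest difference of the 9 genes. On the log2 scale it read 10.25, 10.81 and 10.41 in STZ-O and 10.95, 11.21 and 11.19 in CB-O. All 3 STZ-O livers lay below all 3 CB-O livers, with STZ-O replicate 2 nearest to the controls. The gap between the groups was 0.14, against a spread of 0.56 among the STZ-O livers and 0.27 among the CB-O livers. The means were 10.49 ± 0.29 (SD, n = 3) and 11.12 ± 0.15 (SD, n = 3), a difference of -0.63 ± 0.14 (SE) with a 95% interval from -0.96 to -0.29. On the linear scale this put Rdh16 at 64.8% of its CB-O level. In all, 17 of the 22093 genes, Rdh16 included, had a difference as low or lower, 8 of them among the 2911 genes that averaged above 8.26. In whole liver, fewer cells of a type and less RNA per cell cannot be told apart.

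With 1 array left out the size ran from -0.79 (without STZ-O replicate 2) to -0.50 (without STZ-O replicate 1); its sign could not turn, since the groups do not overlap. The array carries a second probe set annotated to Rdh16 alone. It read 10.18, 10.31 and 10.03 in STZ-O and 10.35, 10.32 and 10.37 in CB-O, so the groups again did not overlap, here by a margin of 0.006. Its difference was -0.17 ± 0.09 (SE, 95% interval -0.38 to 0.03), and the mean of both probe sets gave -0.40. The brighter probe set had its lowest value in STZ-O replicate 1 and the other in STZ-O replicate 3. By the array's numbering the dimmer probe set falls between those of the neighbouring genes Stat6 and Nemp1, apart from the brighter one. Whether both read the same transcript, and which part of it, is not given in the sources used here. Rdh16 also has near relatives whose RNA can share hybridisation.

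**Figure D1:**
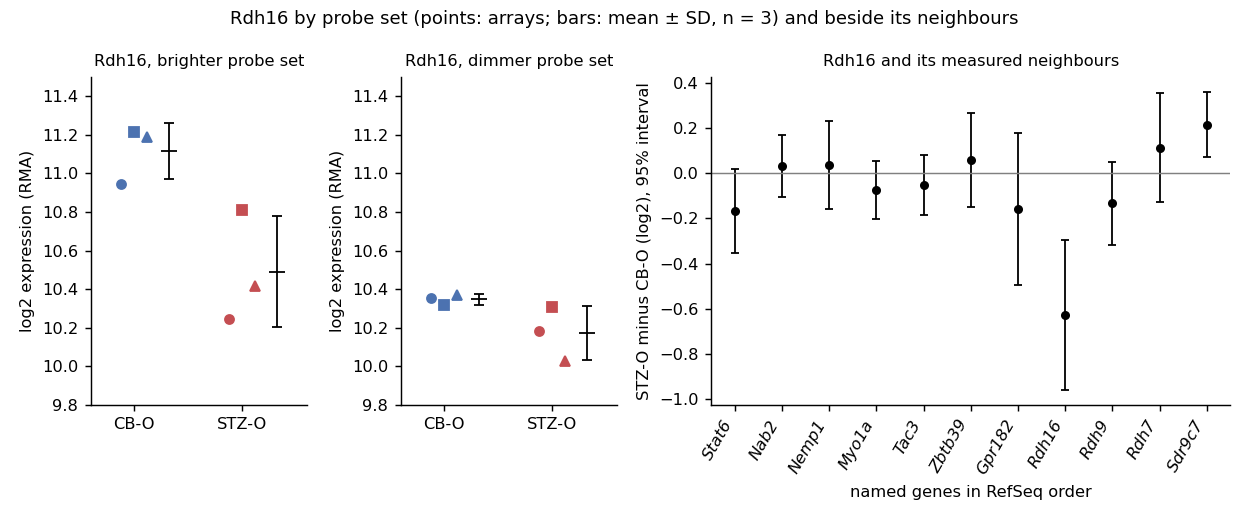
Log2 expression of Rdh16 on each array by probe set (left and centre; symbols are replicates 1 to 3, bars the mean ± SD, n = 3) and the difference STZ-O minus CB-O with its 95% interval for Rdh16 and the named genes within 200 kb (right, in RefSeq order). The brighter probe set differs by -0.63 and the dimmer by -0.17, while the intervals of 9 of the 10 neighbours include 0.

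Several retinol dehydrogenase genes lie beside Rdh16 on chromosome 7. Of the 10 measured genes that RefSeq places within 200 kb of its start, the lowest difference was -0.17 (Stat6), against -0.63 for Rdh16. Rdh7, a close relative that also encodes a retinol dehydrogenase in rat liver, read 9.62, 9.37 and 9.61 in STZ-O and 9.46, 9.57 and 9.24 in CB-O (difference 0.11 ± 0.10, SE), and the groups overlapped. Rdh9, dim at a mean of 5.77, was at -0.13 ± 0.08. Sdr9c7, another short-chain dehydrogenase gene, read 8.27, 8.30 and 8.28 in STZ-O and 8.17, 8.03 and 8.01 in CB-O, with STZ-O above CB-O on every array (difference 0.22 ± 0.06). Its unadjusted limma p was 0.00883 and its adjusted p 0.690, and it was named, like the other neighbours, for its place beside Rdh16. The highest of the other 7 was Zbtb39 at 0.06.

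Rdh10, the dehydrogenase that supplies retinal in the embryo and in many adult tissues, had a small difference beside the spread of the arrays. It read 8.37, 8.28 and 8.42 in STZ-O and 8.32, 8.52 and 8.35 in CB-O. The groups overlapped, with the highest value in CB-O replicate 2. The difference was -0.05 ± 0.07 (SE, 95% interval -0.22 to 0.12), and 0.02 without CB-O replicate 2.

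Dhrs3, whose product returns retinal to retinol and which retinoic acid induces, was slightly higher in STZ-O. It read 9.62, 9.58 and 9.51 in STZ-O and 9.57, 9.46 and 9.24 in CB-O. Only CB-O replicate 1 reached into the range of STZ-O. The difference was 0.15 ± 0.09 (SE, 95% interval -0.06 to 0.35), the largest of the 8 genes other than Rdh16. It was 0.22 without CB-O replicate 1. Leaving out CB-O replicate 3 gave 0.06.

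Rbp4, the plasma carrier of retinol, was the brightest of the 9 genes, with a range of 0.07 over the 6 arrays. It read 12.44, 12.43 and 12.42 in STZ-O and 12.40, 12.41 and 12.37 in CB-O. The groups did not overlap, yet they were parted by a difference of 0.04 ± 0.05 (SE, 95% interval -0.08 to 0.16). After quantile normalisation of the deposited values the difference was 0.007. Ttr, the transthyretin that binds RBP4 in plasma, had the same order at 12.71, 12.67 and 12.73 against 12.64, 12.61 and 12.62, a difference of 0.08 ± 0.05, or 0.04 after quantile normalisation.

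Aldh1a1, which makes retinoic acid from retinal, read 10.42, 10.43 and 10.56 in STZ-O and 10.36, 10.59 and 10.38 in CB-O. The groups overlapped, with both the highest and the lowest value in CB-O. The difference was 0.02 ± 0.08 (SE, 95% interval -0.16 to 0.21). Leaving out 1 array turned its sign in 3 of 6 fits, and so did the Y-linked covariate (-0.01) and after quantile normalisation (-0.005).

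Cyp26a1, which degrades retinoic acid and is induced by it, was dim. It read 6.27, 6.25 and 6.08 in STZ-O and 6.24, 5.98 and 6.11 in CB-O, within the range of the negative controls (median 5.51, 95th percentile 8.26). The groups overlapped, and the difference was 0.09 ± 0.09 (SE, 95% interval -0.11 to 0.29). Signal this close to the negative controls limits what difference could be seen.

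The receptor genes had differences of 0.03 to 0.04. Rarb, which also carries a DR5, read 7.86, 7.84 and 7.84 in STZ-O and 7.80, 7.83 and 7.79 in CB-O. Its groups did not overlap, but the difference was 0.04 ± 0.05 (SE, 95% interval -0.08 to 0.16), and its mean lay below 8.26. Rara read 8.42, 8.28 and 8.38 in STZ-O and 8.60, 8.26 and 8.11 in CB-O, so the CB-O livers spread over 0.49 and enclosed all the STZ-O livers. The difference for Rara was 0.04 ± 0.12 (95% interval -0.24 to 0.31), and -0.07 without CB-O replicate 3. Rxra read 9.83, 9.75 and 9.67 in STZ-O and 9.67, 9.67 and 9.84 in CB-O, a difference of 0.03 ± 0.07 (95% interval -0.14 to 0.20). Leaving out 1 array turned its sign in 3 of 6 fits, as did the values after quantile normalisation (-0.009).

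**Figure D2:**
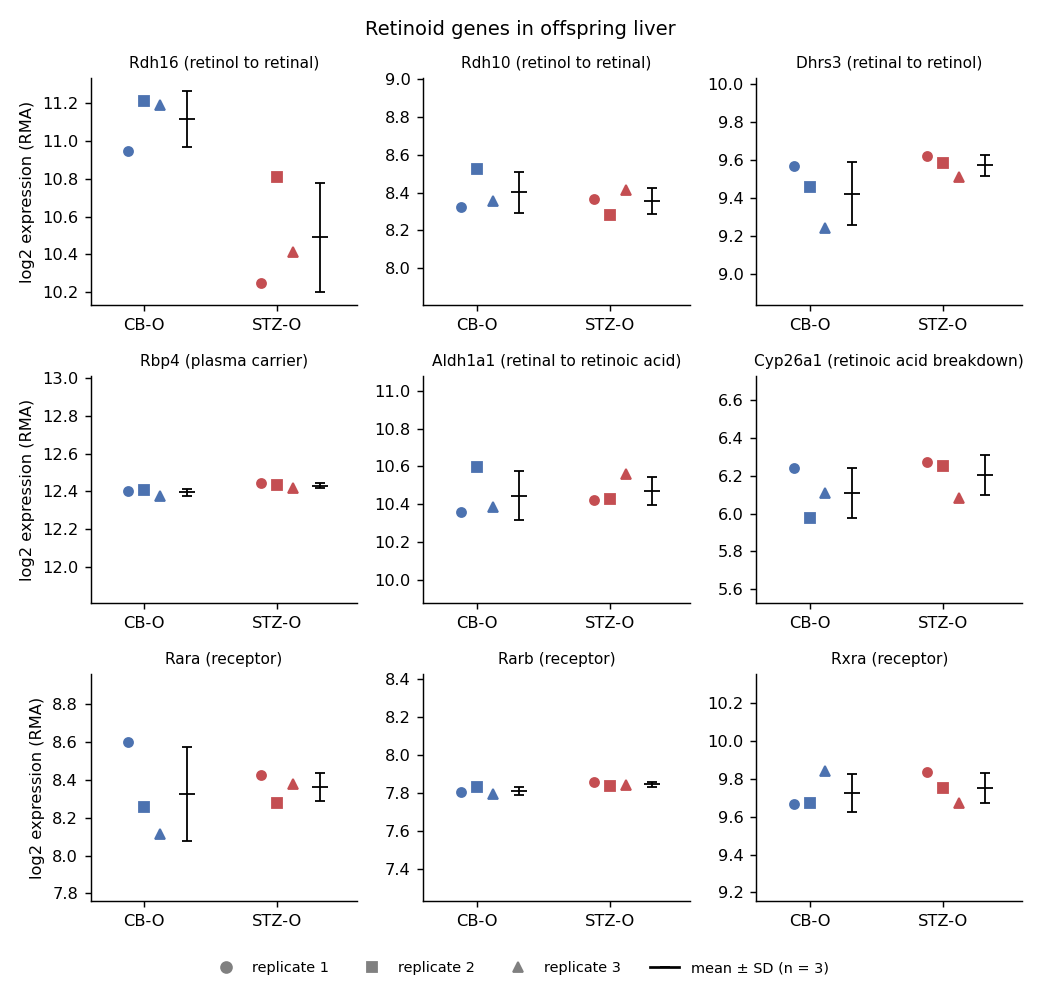
Log2 expression of the 9 retinoid genes on each array, by group (symbols are replicates 1 to 3, bars the mean ± SD, n = 3), with panels of equal height on the log2 scale. Rdh16 lies from 10.25 to 10.81 in STZ-O and from 10.95 to 11.21 in CB-O, and the group means of the other genes differ by 0.15 or less, with CB-O spreads of up to 0.49 (Rara).

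Of the 9 genes, STZ-O was the higher group for 7 and the lower for 2, and their median difference was 0.035, against -0.004 over all genes. In limma, with Benjamini-Hochberg adjustment over all 22093 genes, 0 of the 9 and 0 of all genes (0%) had an adjusted p under 0.05. At an unadjusted p under 0.05 it was 1 of the 9, Rdh16, against 5.68% of all genes. The groups did not overlap for 3 of the 9, Rdh16, Rbp4 and Rarb, against 10.1% of all genes. Nothing is read from these counts, since the contrast itself brought Rdh16 into the list. The 8 genes beside Rdh16 all lay between the 5th and the 95th percentile of the differences of all genes, which were -0.16 and 0.17.

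**Figure D3:**
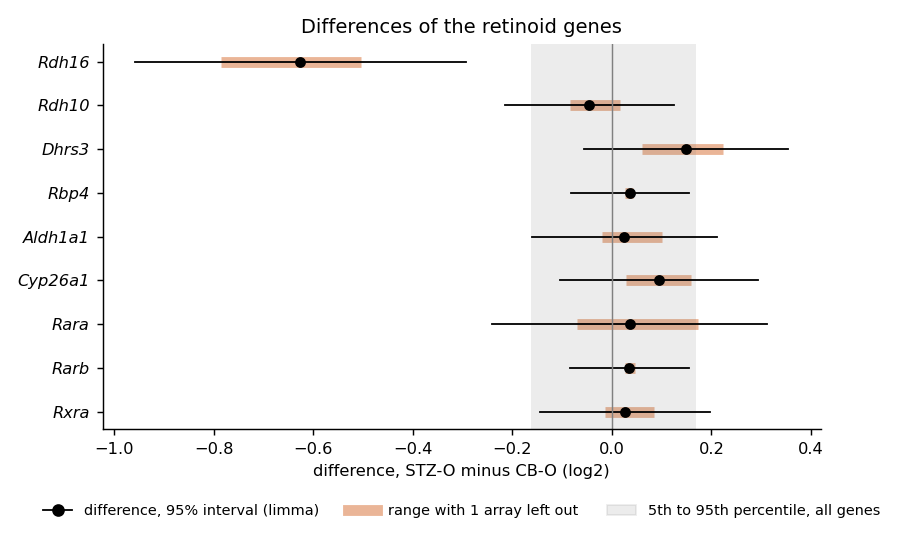
Log2 difference between the groups (STZ-O minus CB-O) for each of the 9 genes (points), with its 95% interval from limma (lines), the range with 1 array left out (orange bars) and the 5th to 95th percentile of the differences of all genes (grey). Rdh16 lies at -0.63 and the other 8 between -0.05 and 0.15.

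The other genes of the pathway, 75 measured genes in 6 lists drawn up by function, were split in direction. STZ-O was above CB-O for 36 and below it for 39, and the median was -0.012. In limma 0 of the 75 had an adjusted p under 0.05; at an unadjusted p under 0.05 there were 5 (6.67%, against 5.68% of all genes), with 2 above and 3 below CB-O. The groups did not overlap for 10 (13.3%, against 10.1% of all genes).

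The list of retinol and retinal oxidoreductases held 4 of those 5 genes (21.1% of the list, against 5.68% of all genes), 2 above and 2 below CB-O. Adh1c, Adh4 and Adh7 among them are genes of the same family. The lists were chosen with earlier results of these data known, so nothing is read from this share. The oxidoreductase list had 19 measured members, 10 above CB-O and 9 below (median 0.017). Adh1c, the abundant class I alcohol dehydrogenase gene, whose product also oxidises retinol, read 12.59, 12.54 and 12.62 in STZ-O and 12.89, 12.86 and 12.79 in CB-O. All STZ-O livers were below all CB-O livers, by a difference of -0.27 ± 0.06 (SE, limma adjusted p = 0.529). Adh7, the class IV enzyme gene, read 8.20, 8.08 and 8.03 against 8.39, 8.65 and 8.43, a difference of -0.39 ± 0.09 (limma adjusted p = 0.532), again without overlap. Its mean of 8.29 lay just above 8.26, the 95th percentile of the negative controls, and its STZ-O values lay below that level.

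Adh4, the class II enzyme gene, was higher in STZ-O. It read 10.11, 10.10 and 10.48 in STZ-O and 10.06, 8.69 and 8.34 in CB-O. CB-O replicate 1 lay with the STZ-O livers, and CB-O replicates 2 and 3 stood well below them. The difference was 1.20 ± 0.39 (SE, limma adjusted p = 0.800), and with 1 array left out it ran from 0.85 to 1.71. Rdh11, a retinal reductase gene, read 7.78, 7.62 and 7.55 against 7.43, 7.51 and 7.45, a difference of 0.19 ± 0.07 (limma adjusted p = 0.838), or 0.12 without STZ-O replicate 1. Its mean of 7.56 lay below 8.26. The alcohol dehydrogenase genes are alike in sequence, so which relative a probe set measures is uncertain. The remaining Rdh genes (Rdh5, Rdh8, Rdh12, Rdh13 and Rdh14), chosen by name alone, differed by -0.12 to 0.06.

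In the list of retinol uptake, binding and esters, 12 of 20 were higher and 8 lower (median 0.023). In limma 1 of the 20 had an unadjusted p under 0.05 (5%, against 5.68% of all genes). That gene was Ces1d, a carboxylesterase, at 10.27, 10.43 and 10.18 in STZ-O and 10.49, 10.75 and 10.54 in CB-O. All STZ-O livers lay below all CB-O livers, with a difference of -0.30 ± 0.09 (SE, limma adjusted p = 0.748). Lipe, hormone-sensitive lipase, was at -0.17 ± 0.08 (-0.11 without CB-O replicate 1), and Pnpla3, which encodes a lipase that can release retinol from its esters, at 0.13 ± 0.08 (0.08 without STZ-O replicate 1). Lipe and Pnpla3 averaged 7.06 and 6.62, below 8.26. Lrat, the enzyme gene that makes retinyl esters and marks stellate cells, read 9.12, 8.55 and 9.08 in STZ-O and 9.16, 8.91 and 8.60 in CB-O, overlapping over nearly the whole range (0.03 ± 0.18). Lrat was named after its values were seen.

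Of 6 genes of retinal oxidation 2 were higher and 4 lower (median -0.021), with Aox1, an aldehyde oxidase gene, at 0.28 ± 0.14 and Aldh8a1, a retinal dehydrogenase gene, at -0.11 ± 0.11. Aox1 was at 0.17 without CB-O replicate 3, and at 0.45 when CB-O replicate 1 was the one left out; Aldh8a1 was at 0.0035 without STZ-O replicate 3. Of 5 genes of retinoid breakdown 1 was higher and 4 lower (median -0.050). Cyp3a9, a cytochrome P450 gene and bright at a mean of 9.85, was lowest at -0.13 ± 0.10, with overlapping groups (-0.06 without CB-O replicate 2 and -0.07 without STZ-O replicate 1). Cyp26c1 and Cyp26b1, relatives of Cyp26a1, were at -0.09 ± 0.05 and -0.03 ± 0.06 and dim. Cyp2c22, a rat retinoic acid hydroxylase gene, was at 0.18 ± 0.13, and 0.03 without CB-O replicate 1. Of 13 receptors and cofactors 5 were higher and 8 lower, within -0.08 (Ppard) and 0.06 (Ncoa3). In these 3 lists 0 genes (0%) had an unadjusted p under 0.05 in limma, against 5.68% of all genes. The lists are too short for that count to be read.

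Genes known to respond to retinoic acid gave 7 higher and 10 lower of 17, with a median of -0.032. In limma 0 of the 17 (0%) had an unadjusted p under 0.05, against 5.68% of all genes. Nothing is read from that count in a list this short. Rarres1 was at 0.31 ± 0.14 and Rarres2, the gene of the secreted protein chemerin, at -0.19 ± 0.09, both named for their response to retinoids. Without 1 array the Rarres1 difference was as low as 0.20 and the Rarres2 difference as small as -0.10. Pdk4, a kinase gene that turns on in fasting, was at 0.44 ± 0.33, which rested on STZ-O replicate 3 (0.008 without it). Of the genes whose RefSeq promoter held a DR5, 27 were measured, 17 higher and 10 lower with a median of 0.019. This list was chosen after the data were seen, and 12 of its 27 genes averaged below the negative control median. Spg21 (0.38 ± 0.08, SE) and Ptpn3 (-0.17 ± 0.07), named after their values were seen, were the 2 with an unadjusted p under 0.05 in limma, and 0 passed the adjustment (2 of 27 is 7.41%, against 5.68% of all genes).

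**Figure D4:**
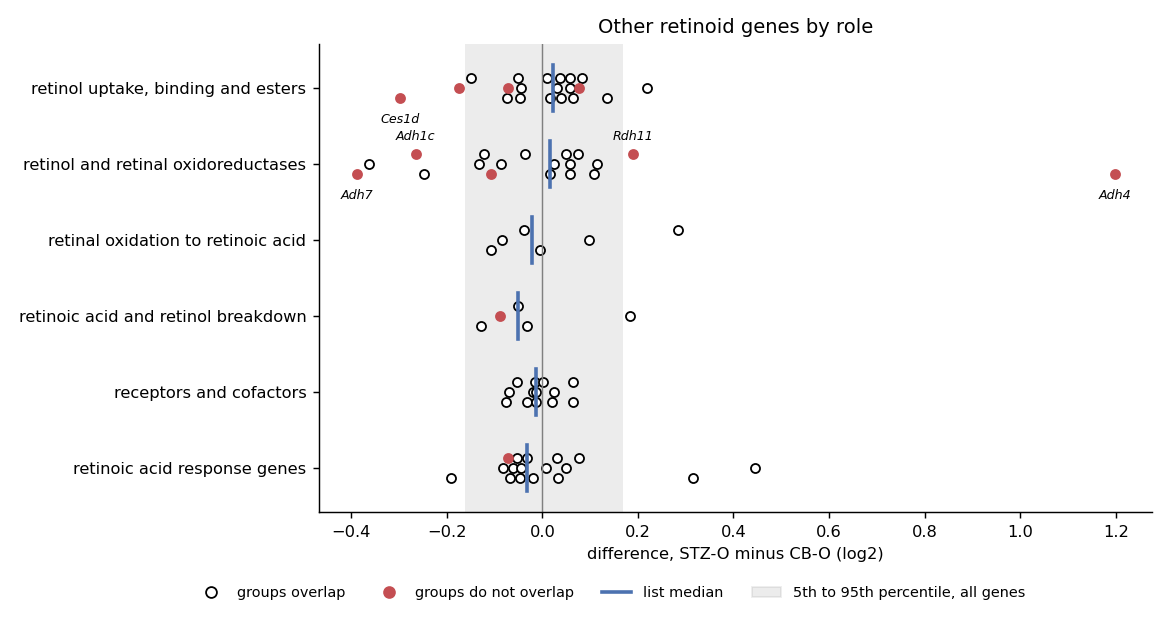
Log2 difference between the groups (STZ-O minus CB-O) for the genes of 6 retinoid lists (points; red where the groups do not overlap), the list medians (blue) and the 5th to 95th percentile of all genes (grey), with a name on each gene at an unadjusted p under 0.05. Adh7, Ces1d and Adh1c lie lowest among the named genes and Adh4 highest at 1.20, and all list medians lie between -0.050 and 0.023.

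The 5 genes whose values across the 6 livers were nearest to those of Rdh16 were sought among 2910 genes that averaged above 8.26. Likeness was the root mean square difference between profiles centred on their own means. Spink1l, of the Kazal-type protease inhibitors, was nearest (0.162 log2 units), with 10.33, 10.61 and 10.37 in STZ-O and 10.78, 10.83 and 10.84 in CB-O. Like Rdh16 it was highest among the STZ-O livers in replicate 2 and lowest among the CB-O livers in replicate 1. Cers6, a ceramide synthase gene (0.164), Enpp3, an ectonucleotidase gene (0.180), Rtp3, a receptor transporter gene (0.182), and Plpp2, a lipid phosphatase gene (0.192), came next. Their differences were -0.33, -0.50, -0.36 and -0.34, against -0.38 for Spink1l, and the groups overlapped for Cers6 and Plpp2. These genes were picked for their likeness to Rdh16, so their differences are no further evidence.

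**Figure D5:**
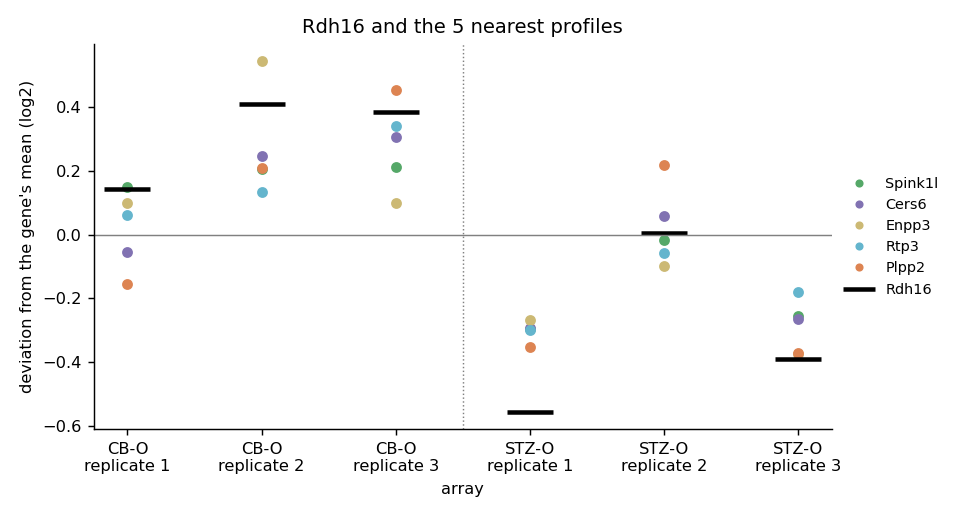
Deviation of each array from the gene's own mean on the log2 scale, for Rdh16 (black bars) and the 5 genes with the nearest profiles (coloured points), CB-O left and STZ-O right of the dotted line. STZ-O replicate 2 lies nearest to the CB-O livers for Rdh16, at a deviation of 0.006, and STZ-O replicate 1 lowest at -0.56.

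Markers of other cells and of sex were read beside the Rdh16 difference. Of 18 stellate cell markers 9 were higher and 9 lower (median -0.007), with list means of 7.69 to 7.73 in STZ-O and 7.67 to 7.81 in CB-O. Among them 0 were without overlap (0%, against 10.1% of all genes). Of 11 hepatocyte markers 8 were lower (median -0.051), with list means of 11.44 to 11.54 in STZ-O and 11.52 to 11.60 in CB-O. Of 12 endothelial markers 11 were lower (median -0.16), with means of 8.07 to 8.53 against 8.44 to 8.65. The low end there was STZ-O replicate 3. Of 12 Kupffer cell and macrophage markers 8 were higher and 4 lower (median 0.021). Of 6 cholangiocyte markers 3 were higher and 3 lower (median 0.0009). Of 12 lymphocyte and neutrophil markers 7 were higher and 5 lower (median 0.007). Among these Ptprc, a leukocyte gene, was at 0.32 ± 0.08 (SE, limma adjusted p = 0.651). It alone of that list was without overlap, with STZ-O above (8.33%, against 10.1% of all genes). Of 5 red cell markers 4 were lower (median -0.13), with means of 7.14 to 7.25 against 7.22 to 7.42. Of 10 pericentral markers 6 were lower (median -0.11, means 8.76 to 9.05 against 8.996 to 9.17), and of 10 periportal markers 7 were lower (median -0.055, means 9.91 to 10.15 against 9.95 to 10.22). Among the periportal markers Ass1, a urea cycle enzyme gene, was at -0.34 ± 0.08 (limma adjusted p = 0.578). It alone of the periportal list was without overlap, with STZ-O below (10%, against 10.1% of all genes). The pericentral list also had 1 gene without overlap (10%), the dim Lgr5 at -0.25 ± 0.07 (limma adjusted p = 0.708), with STZ-O below. Of 9 genes more expressed in female rat liver 6 were higher in STZ-O (median 0.20, list means 7.63 to 8.02 against 7.56 to 7.73), 4 of them without overlap (44.4%, against 10.1% of all genes). Of 8 male-biased genes 5 were lower (median -0.034, list means 11.27 to 11.34 against 11.29 to 11.46), among them Stac3 at -0.43 ± 0.07 (limma adjusted p = 0.298). Stac3 alone of that list was without overlap (12.5%, against 10.1% of all genes). Of 5 Y-linked genes 3 were higher (median 0.029), with list means of 7.44 to 7.49 against 7.36 to 7.54. Ptprc, Ass1, Lgr5 and Stac3 were named after their values were seen. The part of these markers in the Rdh16 difference was not tested.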

How the data were processed

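Per the submitters' processing notes, the authors made the deposited log2 values by robust multi-array averaging (RMA) in Affymetrix Expression Console 1.4.1, 1 value per probe set and array; its parameters, annotation and build are not stated there. RMA subtracts background and draws the arrays to a common distribution. Differences of dim probe sets can be compressed in such values. Column medians were 5.77 to 5.82. Control probe sets were left out, leaving 68842, of which 23446 had 1 symbol in the platform annotation; 22093 genes were each read from their brightest such probe set.

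STZ-O minus CB-O was fitted with limma 3.58.1 (R 4.3.3, lmFit and eBayes, two-sided, no covariate, checked on simulated data) over all genes and adjusted by Benjamini-Hochberg, threshold 0.05. The ± values beside differences are moderated standard errors. The number of arrays limits precision.

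The members and lists were chosen with earlier results of these data known. Named genes were the 9 members, the 2 highest and 2 lowest by moderated t in each list (among genes at or above the negative control median), the Rdh relatives and the 5 profiles nearest to Rdh16; a gene outside this rule is marked as chosen later or is a RefSeq neighbour or marker. Promoters came from RefSeq, GRCr8. The replicate numbers were not taken as pairs. Alternatives were filters, variance models, array weights, probe set choice, rescaling, a Y-linked covariate, a replicate block and leaving out each array.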

Additional observations from a re-analysis of the deposited data

How the results depend on the processing

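Under the 17 alternatives, 0 of the 9 retinoid genes and 0 of the 75 other pathway genes passed the adjusted threshold in limma. Over all genes 0 passed on the main setting, 2 with genes below the negative control median left out, 2 with an intensity trend and robust variances, and 0 to 1 with 1 array left out; none of these is a retinoid gene. The Rdh16 difference ran from -0.79 to -0.40 and its limma adjusted p from 0.291 to 0.919. Of 151 values of the 9 genes under alternatives, 1 moved by more than the spread between replicates, Rbp4 after quantile normalisation (0.007). Of 744 values of all named genes the other was Ttr there (0.045). The filters, variance models, adjustment over all probe sets and replicate block cannot change a difference, only its p. The mean of all probe sets changes it only for genes with several. Many of these values could therefore not move, and the counts do not measure robustness. At an unadjusted p under 0.05 there were 2 of the 9 without moderation (Rbp4 joined Rdh16) and without CB-O replicate 1 (Dhrs3 joined it). Genes at that p numbered 1255, and 175 with genes below the 95th percentile of negative controls left out, since 2911 genes were then tested. With the replicate block 0 genes passed and 1310 had an unadjusted p under 0.05. Same-numbered livers deviated together at r = 0.146, -0.175 and 0.10, so the numbers were not treated as pairs. The number of arrays and signal near the negative controls (Cyp26a1, Rarb) limit what could be seen.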
